A study of Mus musculus with 12 samples.

Results

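The genes described here are 10 genes known as markers of the Ly6C-low, nonclassical monocytes of the mouse, Cd300e, Itgal, Spn, Nr4a1, Ace, Treml4, Pou2f2, Cx3cr1, Eno3 and Pecam1, out of 22180 genes tested. They were chosen by name, and each of the 10 was read by 1 probe set, so no choice between probe sets was needed. The list was drawn up with earlier results of these arrays known, in which Cd300e, Itgal and Pecam1 had been seen to be lower in wild-type TAMs than in wild-type macrophages. For that comparison, and for the difference between the genotypes in the co-culture difference, which contains it, the values of the 10 genes are therefore given as a description with no test.

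RNA of mouse primary macrophages was read on 12 single-channel arrays, with 3 arrays in each of 4 groups. KO TAMs carried a knockout of Cd36, the gene of a fatty acid and lipoprotein scavenger receptor, and had been cultured for 72 h with 5TGM1, a mouse multiple myeloma line, which makes them tumour-associated macrophages (TAMs) in the terms of the study. KO macrophages carried the same knockout and were cultured without myeloma cells. WT TAMs were wild type for Cd36 and had the same 72 h of co-culture, and WT macrophages were wild type and cultured without myeloma cells. The tissue the macrophages came from, the strain, sex and age of the mice, the removal of the myeloma cells and the culture time of the macrophages without them were not found in the labels. Whether the arrays of a group came from separate mice or cultures is not given either, so p-values measure the spread between these arrays, which may be technical.

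Nonclassical monocytes are the monocytes that stay in the blood vessels and crawl along the vessel wall. They arise from classical, Ly6C-high monocytes, and this step needs the orphan nuclear receptor Nr4a1 (Nur77). Crawling uses the integrin LFA-1, whose alpha chain is encoded by Itgal, and survival of the cells uses the fractalkine receptor Cx3cr1. Macrophages in culture are not these monocytes, and most of the 10 genes are also used by other leukocytes, by endothelium or, for Eno3, by muscle.

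The promoter letters of 3 of the genes are shown because these genes carry the main differences below. Cd300e had the largest difference of the 10 with co-culture. Spn and Nr4a1 were the 2 genes called different between KO and WT macrophages in the fit over all 12 arrays, in opposite directions. Each line holds the 250 bases before the start of the gene, 5′ to 3′ on the strand of the gene, from RefSeq (GRCm38.p6). Capitals mark matches to AGGAAGT, a core of sites for ETS factors such as PU.1, or to TGCGTCA, an AP-1-like element, on either strand.
Cd300e, chr11:115062040-115062289, minus strand: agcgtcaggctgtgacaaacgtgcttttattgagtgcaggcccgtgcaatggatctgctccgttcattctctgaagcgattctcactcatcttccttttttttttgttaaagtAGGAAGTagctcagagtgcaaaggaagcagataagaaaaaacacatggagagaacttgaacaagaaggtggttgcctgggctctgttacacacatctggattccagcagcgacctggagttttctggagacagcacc
Spn, chr7:127137824-127138073, minus strand: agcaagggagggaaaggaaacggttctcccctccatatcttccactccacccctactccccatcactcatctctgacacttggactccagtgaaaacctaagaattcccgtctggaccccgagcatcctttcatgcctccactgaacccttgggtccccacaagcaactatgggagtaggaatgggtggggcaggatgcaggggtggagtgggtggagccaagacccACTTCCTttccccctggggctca
Nr4a1, chr15:101266596-101266845, plus strand: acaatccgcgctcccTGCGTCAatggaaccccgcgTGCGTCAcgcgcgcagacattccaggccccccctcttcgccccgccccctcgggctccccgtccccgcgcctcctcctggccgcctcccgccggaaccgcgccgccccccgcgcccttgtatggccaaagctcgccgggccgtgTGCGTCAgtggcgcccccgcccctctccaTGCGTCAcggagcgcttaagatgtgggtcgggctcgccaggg

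The Nr4a1 promoter held TGCGTCA 4 times, beginning 235, 215, 71 and 42 bases before the start, and 74.4% of its bases were G or C. The Cd300e promoter held AGGAAGT at 137 bases before the start, and the Spn promoter held its reverse complement at 23 bases. Among the 32851 promoters of the table, 7.69% held AGGAAGT and 1.75% held TGCGTCA in the same window. The octamer ATGCAAAT, to which Oct2 (Pou2f2) binds, and AAAGGTCA, to which Nr4a1 binds, were searched as well, and neither was among the letters of these windows in the 8 of the 10 genes that the table holds (9 promoters, 2 of them of Ace). Of all promoters 1.6% held the octamer and 1.34% held AAAGGTCA. The motifs were chosen after the sequences and the results were known, and a match is a description of letters, not of binding.

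**Figure D1:**
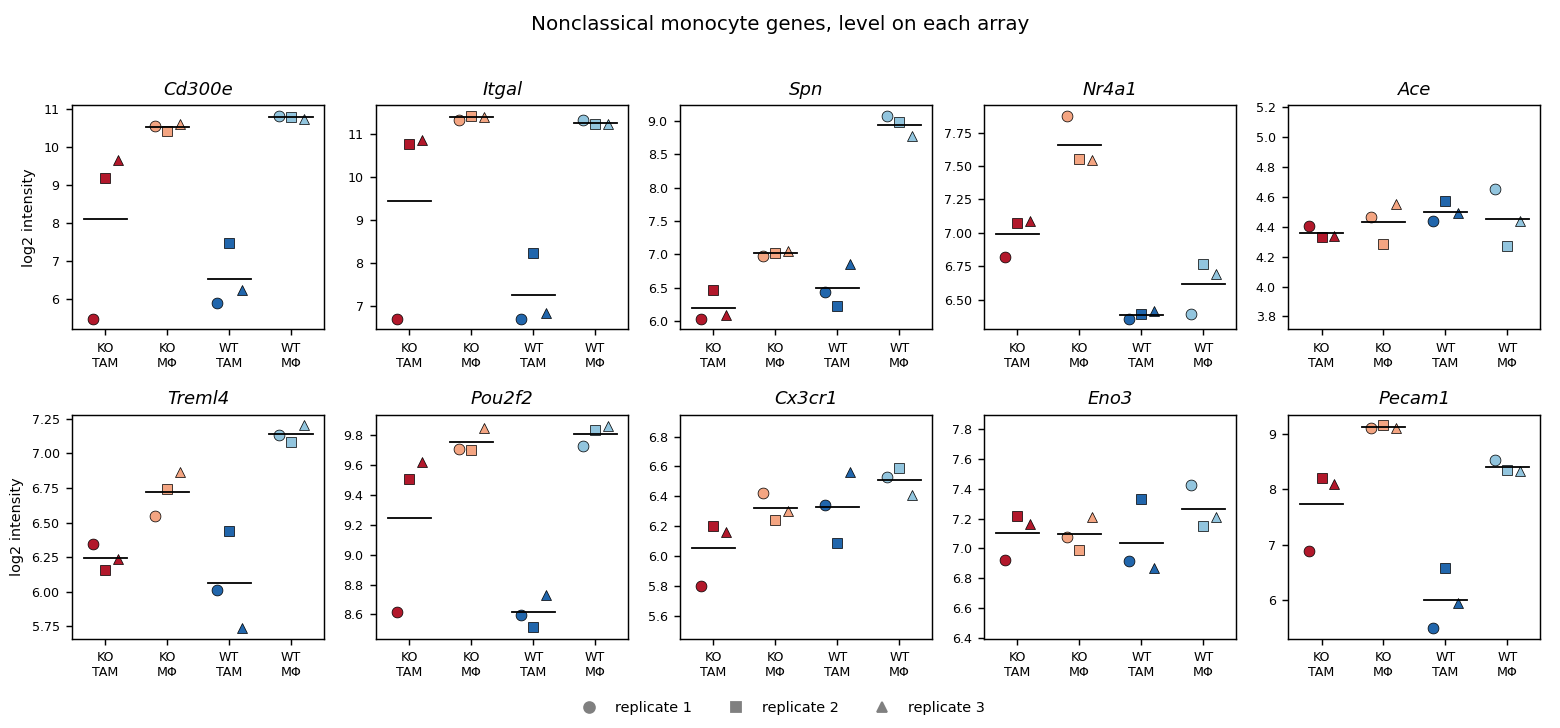
Level of each of the 10 genes on each array (log2 intensity, y axis, with its own range in each panel) in KO TAMs, KO macrophages (MΦ), WT TAMs and WT macrophages, with a symbol per replicate and a line at the group mean of 3 arrays. Cd300e and Itgal on KO TAM 1 lie below or within the range of the WT TAM arrays, while KO TAM 2 and 3 lie near the KO macrophages.

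The receptor Cd300e, an immunoglobulin-like molecule of myeloid cells that signals through the adaptor DAP12 in human cells, had the widest range of the 10 genes over the arrays. On the log2 intensity scale used throughout, its level was 5.46, 9.18 and 9.64 on KO TAM 1, 2 and 3, against 10.53, 10.41 and 10.59 on KO macrophage 1, 2 and 3. It was 5.88, 7.48 and 6.24 on WT TAM 1, 2 and 3, against 10.82, 10.78 and 10.71 on WT macrophage 1, 2 and 3. The macrophage arrays of both genotypes were high and close together, all TAM arrays were below those of their genotype, and the KO TAM arrays were spread over the whole range of WT TAMs and beyond. In KO cells the co-culture difference was -2.41 ± 0.82 (5.33-fold lower, standard error of the limma fit, n = 3 arrays each) and did not pass the threshold, which is a limma p under 0.05 after Benjamini-Hochberg adjustment over the 22180 genes (adjusted p = 0.11). The difference in WT cells was -4.24 ± 0.82, or 18.9-fold lower.

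Itgal, the alpha chain of LFA-1, followed the same course. Its level was 6.71, 10.77 and 10.87 on KO TAM 1, 2 and 3, against 11.34, 11.44 and 11.41 on KO macrophages. It was 6.69, 8.25 and 6.84 on WT TAM 1, 2 and 3, against 11.33, 11.25 and 11.23 on WT macrophages. KO TAM 1 thus had the level of WT TAM 1 and 3, and KO TAM 2 and 3 were close to KO macrophages without overlapping them. The co-culture difference was -1.95 ± 0.85 in KO cells (3.85-fold lower, adjusted p = 0.223) and -4.01 ± 0.85 in WT cells (16.1-fold lower). In these bulk samples fewer cells that use a gene and less of its RNA per cell cannot be told apart.

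In KO TAMs against WT TAMs Cd300e differed by 1.57 ± 0.82 (adjusted p = 0.266) and Itgal by 2.19 ± 0.85 (adjusted p = 0.126), and neither passed. Without KO TAM 1 these differences were 2.88 ± 0.35 for Cd300e (limma adjusted p = 0.00027) and 3.56 ± 0.35 for Itgal (limma adjusted p = 8.17e-05), higher in KO TAMs. Both genes were listed knowing their low level on these WT TAM arrays, so these p-values are not independent of the choice. Cd300e in KO against WT macrophages differed by -0.26 (adjusted p = 0.89) and Itgal by 0.12 (adjusted p = 0.954). Fitted on the macrophage arrays alone, Cd300e passed (-0.26 ± 0.07, limma adjusted p = 0.0431) and Itgal did not (limma adjusted p = 0.241).

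The KO co-culture values of Cd300e and Itgal also rested on KO TAM 1. Measured from the mean of KO macrophages, Cd300e was at -5.05 on KO TAM 1, 33-fold lower, against -1.33 and -0.87 on KO TAM 2 and 3. For Itgal the same shifts were -4.69 on KO TAM 1 and -0.63 and -0.53 on KO TAM 2 and 3. Without KO TAM 1 and fitted on the other arrays of the comparison alone, the Cd300e difference was -1.10 ± 0.15 (limma adjusted p = 0.0151) and the Itgal difference was -0.58 ± 0.08 (limma adjusted p = 0.0183), both smaller and both past the threshold. Leaving out KO TAM 1 in this way was chosen after its values were seen. With the WT arrays kept in the fit, and KO TAM 1 left out, neither passed (adjusted p = 0.109 and 0.439), and with WT TAM 2 left out as well both passed (0.00146 and 0.00189). Array weights gave a Cd300e difference of -1.52 (adjusted p = 0.0465), and leaving out KO TAM 3 gave -3.19 (adjusted p = 0.0355).

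On KO TAM 1 Cd36 had the low level of the KO arrays. It read 8.45, 9.66 and 8.64 on KO TAM 1, 2 and 3, against 12.14, 12.53 and 12.29 on WT TAMs. In KO macrophages it read 8.63 to 8.79, against 12.10 to 12.15 in WT macrophages. Xist and the Y-linked genes followed the genotype labels on all 12 arrays, with Xist at -6.86 in KO relative to WT macrophages and Uty at 6.57, so that genotype and the sex pattern of the arrays cannot be told apart in any comparison of KO with WT.

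**Figure D2:**
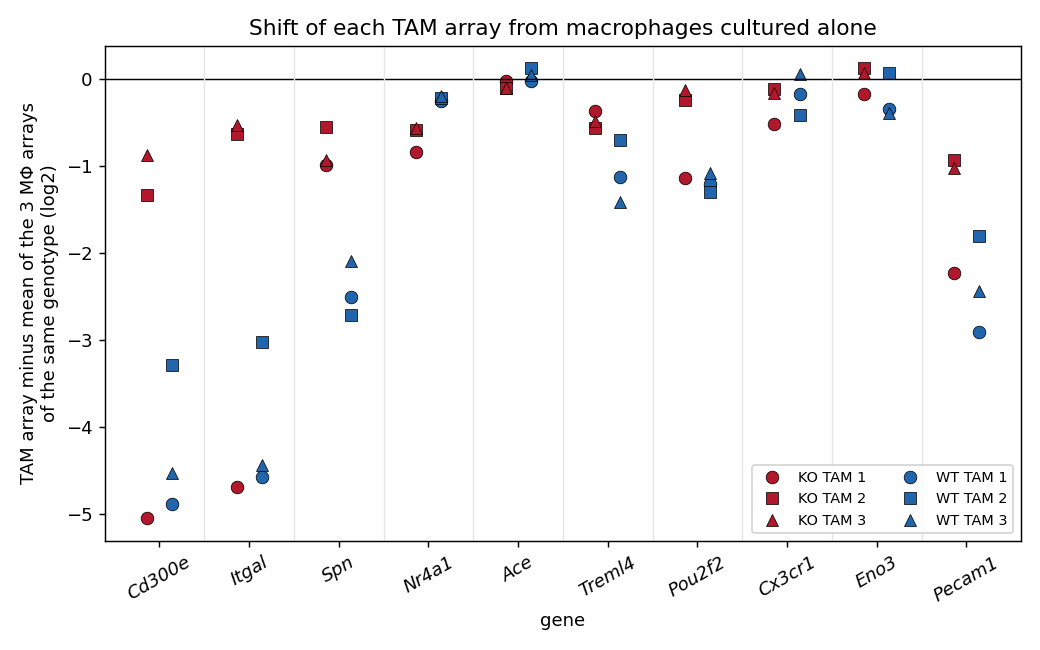
Shift of each TAM array from the mean of the 3 macrophage arrays of the same genotype (log2, y axis) for the 10 genes (x axis), with KO TAMs left and WT TAMs right within each gene. For Cd300e, Itgal, Pou2f2 and Pecam1 the array KO TAM 1 lies with the WT TAM arrays, at -5.05, -4.69, -1.14 and -2.23. For these genes KO TAM 2 and 3 lie between -1.33 and -0.13.

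Pecam1 (CD31), an adhesion molecule of endothelium, platelets and leukocytes with inhibitory motifs in its tail, fell in KO TAMs relative to KO macrophages. It read 6.89, 8.19 and 8.09 on KO TAM 1, 2 and 3, against 9.11, 9.16 and 9.09 on KO macrophages. On WT TAM 1, 2 and 3 it read 5.49, 6.59 and 5.96, against 8.52, 8.34 and 8.33 on WT macrophages. The TAM arrays were low in both genotypes, and all KO arrays of a culture lay above all WT arrays of that culture. The KO co-culture difference was -1.39 ± 0.31 (2.63-fold lower, adjusted p = 0.0216), and the WT difference was -2.38 ± 0.31 (5.22-fold lower). Measured from the mean of KO macrophages, KO TAM 1 was at -2.23, against -0.93 and -1.03 on KO TAM 2 and 3. Without KO TAM 1 the KO difference was smaller, at -0.98. The KO call was lost without any of KO macrophage 1, 2 and 3 (adjusted p 0.0706, 0.0768 and 0.0705) and when the 6 arrays of the comparison were fitted alone (0.0728). Pecam1 rose in KO relative to WT TAMs by 1.71 ± 0.31 (3.28-fold, adjusted p = 0.00434), a difference that the choice of Pecam1 for its low level in WT TAMs favoured, and this too missed the threshold when those arrays were fitted alone (0.0687). For KO against WT macrophages the difference was 0.72 ± 0.31 (adjusted p = 0.176), which passed when those arrays were fitted alone (0.000695) and without KO TAM 1 (0.0377).

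Spn, which encodes the sialomucin CD43 used to sort nonclassical monocytes, differed most by genotype in cells cultured without myeloma cells. It read 6.98, 7.03 and 7.05 on KO macrophages, against 9.08, 8.97 and 8.77 on WT macrophages. The TAM arrays read 6.03, 6.47 and 6.09 in KO cells and 6.44, 6.23 and 6.85 in WT cells. WT macrophages were the single high group, and the TAM groups overlapped. Spn fell in KO relative to WT macrophages (-1.92 ± 0.16, 3.79-fold lower, adjusted p = 4.9e-05) and in KO TAMs relative to KO macrophages (-0.82 ± 0.16, 1.77-fold lower, adjusted p = 0.0103). Both calls were made under all alternatives that were run, with adjusted p up to 0.000594 and 0.0442. KO TAMs differed from WT TAMs in Spn by -0.31 ± 0.16 (adjusted p = 0.254). The WT co-culture difference was -2.44 ± 0.16, and the KO value minus the WT value of that difference was 1.61 ± 0.22.

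The fractalkine receptor Cx3cr1 read 5.80, 6.20 and 6.16 on KO TAM 1, 2 and 3, against 6.42, 6.24 and 6.30 on KO macrophages. It read 6.34, 6.09 and 6.56 on WT TAMs, against 6.53, 6.59 and 6.41 on WT macrophages. KO TAMs lay just below KO macrophages and the WT groups overlapped. No tested comparison passed, with differences of -0.27 ± 0.13 with co-culture in KO cells (adjusted p = 0.301), -0.19 between the genotypes in macrophages and -0.28 in TAMs (95% interval -0.59 to 0.03).

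Treml4, a TREM-like receptor that marks Ly6C-low monocytes, read 6.35, 6.16 and 6.24 on KO TAM 1, 2 and 3, against 6.55, 6.74 and 6.86 on KO macrophages. It read 6.01, 6.44 and 5.73 on WT TAMs, against 7.13, 7.08 and 7.21 on WT macrophages. Treml4 was lower in TAMs of both genotypes with no overlap, and here KO TAM 1 was the highest of the KO TAM arrays. The KO co-culture difference was -0.47 ± 0.15 (adjusted p = 0.0904) and the difference between KO and WT macrophages was -0.42 ± 0.15 (adjusted p = 0.0958), and neither passed. Each passed without WT TAM 2 (adjusted p = 0.0206 and 0.0219) or without WT TAM 3 (0.0463 and 0.0495), arrays that take part only through the common estimate of the spread. The macrophage difference also passed when the macrophage arrays were fitted alone (limma adjusted p = 0.0174).

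Among the transcription factors, Nr4a1 was higher in KO cells. It read 6.82, 7.07 and 7.09 on KO TAMs and 7.88, 7.55 and 7.55 on KO macrophages. In WT cells it read 6.35, 6.39 and 6.41 on TAMs and 6.39, 6.76 and 6.69 on macrophages. Every KO array was above every WT array. Nr4a1 rose in KO relative to WT macrophages (1.04 ± 0.12, 2.06-fold, adjusted p = 0.000511) and in KO relative to WT TAMs (0.60 ± 0.12, 1.52-fold, adjusted p = 0.00824), and these calls were made under all alternatives that were run. It fell in KO TAMs relative to KO macrophages (-0.67 ± 0.12, 1.59-fold lower, adjusted p = 0.00898), a call lost in 1 alternative, in which KO TAM 1 was left out and the other arrays were fitted alone (0.0547). The WT co-culture difference was -0.23 ± 0.12, and the WT arrays overlapped.

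Pou2f2, which encodes the octamer factor Oct2 known best from B cells, separated KO TAM 1 from KO TAM 2 and 3 as Cd300e and Itgal did. It read 8.61, 9.51 and 9.62 on KO TAM 1, 2 and 3, against 9.71, 9.70 and 9.85 on KO macrophages. It read 8.59, 8.51 and 8.73 on WT TAMs, against 9.73, 9.84 and 9.86 on WT macrophages. KO TAM 1 stood within the WT TAM range, and KO TAM 2 and 3 stood just below the KO macrophages. The KO co-culture difference of -0.50 ± 0.20 (-0.19 without KO TAM 1) did not pass (adjusted p = 0.185 with all arrays). Nor did the difference between KO and WT TAMs (0.64 ± 0.20, adjusted p = 0.0647), which was 0.95 ± 0.10 without KO TAM 1 (adjusted p = 9.5e-05) and passed with the replicate number as a block (0.047).

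For the enzymes no tested comparison passed. Ace, the angiotensin-converting enzyme, read 4.27 to 4.65 over the 12 arrays, and its differences in the tested comparisons lay between -0.14 and -0.02 (adjusted p 0.46 to 0.931). The table gives no detection calls, so whether the Ace probe set was above its background cannot be told. Eno3, the muscle isoform of the glycolytic enzyme enolase, read 6.92 to 7.21 in KO TAMs, 6.99 to 7.21 in KO macrophages, 6.87 to 7.33 in WT TAMs and 7.15 to 7.42 in WT macrophages. All 4 groups of Eno3 overlapped, and 95% intervals of its tested differences were -0.30 to 0.32 with co-culture in KO cells, -0.48 to 0.14 between the genotypes in macrophages and -0.25 to 0.37 in TAMs.

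**Figure D3:**
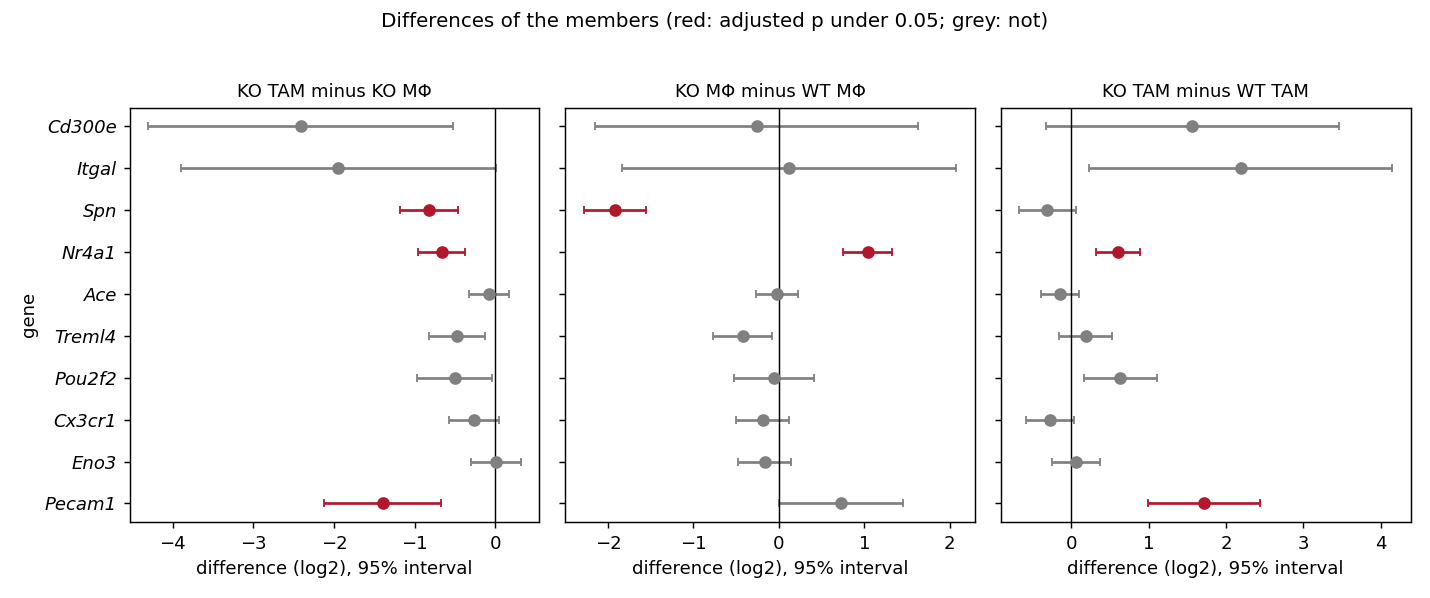
Differences (log2, x axis) of the 10 genes (rows) in the 3 tested comparisons, each with the 95% interval of the limma fit from 3 arrays a group. Red marks genes past the threshold, namely Spn, Nr4a1 and Pecam1 for KO TAMs minus KO macrophages, Spn and Nr4a1 for KO minus WT macrophages, and Nr4a1 and Pecam1 for KO minus WT TAMs.

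In KO TAMs against KO macrophages, 3 of the 10 genes passed, all lower, where 6.53% of all genes passed and 3.63% passed lower. The median difference of the 10 was -0.58, against -0.01 over all genes. The 3 KO TAM arrays lay below the 3 KO macrophage arrays in 8 of the 10 genes, against 14.6% of all genes, the exceptions being Ace and Eno3. These 8 include Cd300e, Itgal and Pecam1, known to be low in WT TAMs after the same co-culture when the list was drawn up. The KO counts and median are therefore not independent of that choice. In WT cells the TAM arrays lay below the macrophage arrays in 6 of the 10 genes, Cd300e, Itgal, Spn, Treml4, Pou2f2 and Pecam1, where this holds for 14.6% of all genes, a count that the choice of the list had in view. Between KO and WT macrophages 2 of the 10 passed, where 11.3% of all genes did, a count that does not set the list apart, and the median difference was -0.11 against 0.04. The KO macrophage arrays lay below the WT macrophage arrays in 3 of the 10 genes (17.7% of all genes) and above them in 3 (20.8%). Between KO and WT TAMs 2 of the 10 passed, both higher, where 12.2% of all genes passed and 5.03% passed higher. Since the list was drawn up knowing that Cd300e, Itgal and Pecam1 were low in WT TAMs, a higher level in KO than in WT TAMs was favoured by that choice, and nothing is read from this count. The KO co-culture comparison shares its KO arrays with the genotype comparisons, and these share their WT arrays with the WT comparison.

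Some of the 10 genes had like level patterns over the arrays and others did not. Over the 12 arrays, which form 4 groups and share their normalization, Pearson's r between Cd300e and Itgal was 0.987 (Spearman's coefficient 0.783), and Pou2f2 had r = 0.958 with Cd300e and 0.96 with Itgal. Pecam1 had r = 0.943 with Itgal, whereas Spn had r = 0.529 with Itgal and r = -0.169 with Nr4a1. These values describe the level pattern and were not tested. Outside the list, the pattern most like the mean of the 10 genes was that of Arhgap27 (r = 0.998), Arhgap26 (0.992), Tagap (0.992), Fnbp1l (0.992) and Slc39a13 (0.991). That mean was taken over gene-centred log2 levels that were not scaled. Genes with a wide range, such as Cd300e and Itgal, therefore weigh most in it, and Ace and Eno3 weigh little. Arhgap27 read 6.69, 8.09 and 8.32 on KO TAM 1, 2 and 3 and 8.90 to 8.98 on KO macrophages. It read 6.58, 7.17 and 6.74 on WT TAMs and 8.99 to 9.02 on WT macrophages, so it too had KO TAM 1 at the level of WT TAMs. Most like Cd300e alone were Heg1 (r = 0.994), Slc35g1 (0.994) and Rac2 (0.992), and most like Nr4a1 were Golga1 (0.978), Rsrc2 (0.968) and Chd9 (0.967).

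The relatives and partners of the 10 genes show how far each difference extended within its family. LFA-1 is a dimer of Itgal with the beta chain Itgb2, which read 11.51, 11.75 and 11.51 on KO TAMs, against 12.23, 12.24 and 12.20 on KO macrophages. Itgb2 fell by 0.63 ± 0.08 in KO TAMs (adjusted p = 0.00123), with the 3 arrays close together, and KO TAM 1 was not set apart. In WT cells Itgb2 read 11.64 to 11.75 on TAMs, against 12.23 to 12.28 on macrophages. Talin (Tln1), which activates the dimer, fell by 0.54 ± 0.09 (adjusted p = 0.00557). The related chain Itgam fell by 0.29 ± 0.08 (adjusted p = 0.0459), a call lost without 10 of the 12 arrays in turn (up to 0.137), and Itgax (0.42) did not pass. Of the 11 measured genes of that group besides Itgal these 3 passed, where 6.53% of all genes did. Between the genotypes in macrophages Itgax (-1.49 ± 0.34) and the LFA-1 ligand gene Icam2 (-0.92 ± 0.15) fell. These were 2 of the 11 genes, where 11.3% of all genes passed. The Itgax call was lost without WT macrophage 2 or 3 or KO macrophage 1 or 3 (adjusted p up to 0.0683).

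**Figure D4:**
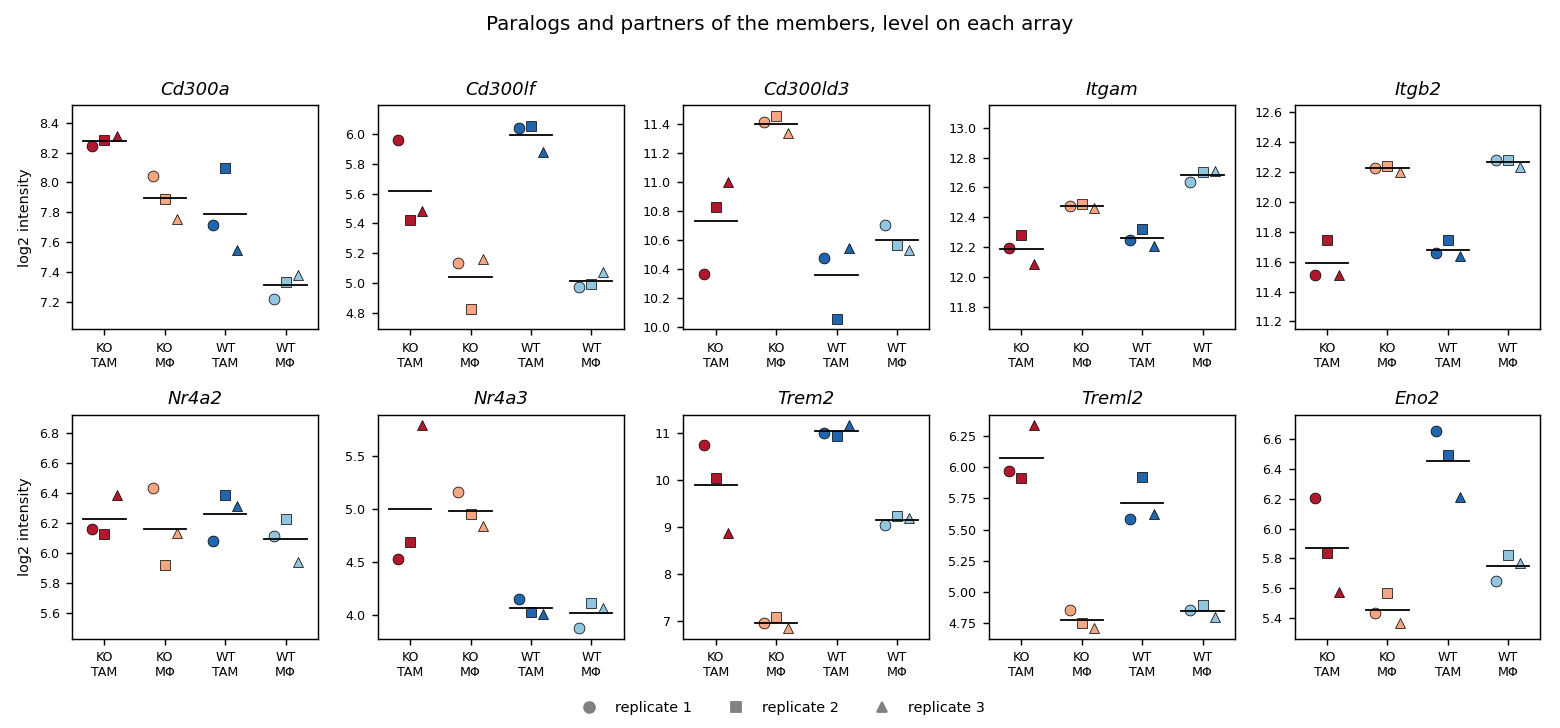
Level of 10 paralogs and partners of the listed genes on each array (log2 intensity, y axis with its own range in each panel) in KO TAMs, KO macrophages (MΦ), WT TAMs and WT macrophages, with a line at the mean of 3 arrays. Itgb2 is low on all 3 KO TAM arrays (11.51 to 11.75), and Nr4a3 is higher on all KO arrays than on all WT arrays.

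Of the other CD300 family genes some passed in each direction. In KO TAMs Cd300ld3 fell by 0.67 ± 0.16 (adjusted p = 0.0289) and Cd300lf rose by 0.58 ± 0.14 (adjusted p = 0.0291). Both calls were lost without KO TAM 1 or any of KO macrophage 1, 2 and 3 (up to 0.101 and 0.121). These were 2 of 8 measured family members besides Cd300e, where 6.53% of all genes passed. The WT co-culture difference was -0.24 for Cd300ld3 and 0.97 for Cd300lf. Cd300a, an inhibitory member, had a difference of 0.38 (adjusted p = 0.106). In KO relative to WT macrophages Cd300ld3 rose by 0.80 ± 0.16 (adjusted p = 0.00774), Cd300a rose by 0.58 ± 0.13 and Cd300lb fell by 0.67 ± 0.16. These were 3 of the 8 genes, where 11.3% of all genes passed. The Cd300a call was lost without WT macrophage 1 or KO macrophage 1 (up to 0.0585), and that of Cd300lb without WT macrophage 1, 2 or 3 or KO macrophage 2 or 3 (up to 0.0586).

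In the TREM family Trem2 and Treml2, neighbours of Treml4 on chromosome 17, rose in KO TAMs. Trem2, a lipid-sensing receptor of macrophages, read 10.74, 10.03 and 8.87 on KO TAM 1, 2 and 3, against 6.96, 7.10 and 6.85 on KO macrophages, and rose by 2.91 ± 0.33 (adjusted p = 0.000522). Treml2 rose by 1.30 ± 0.12 in KO TAMs (adjusted p = 0.000149). The WT co-culture difference was 1.87 for Trem2 and 0.86 for Treml2. The other 7 measured genes of that list, among them the adaptor Tyrobp (0.03, adjusted p = 0.869), did not pass. Of all genes 6.53% passed in KO TAMs against KO macrophages. Trem2 fell in KO relative to WT macrophages by 2.19 ± 0.33 (adjusted p = 0.00171). In that comparison 2 of the 9 measured genes passed, Treml1 being higher (0.44), where 11.3% of all genes passed.

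Within the NR4A family Nr4a3 rose in KO cells as Nr4a1 did, and Nr4a2 did not pass. Nr4a3 read 4.53, 4.69 and 5.79 on KO TAMs and 5.16, 4.96 and 4.84 on KO macrophages, against 4.15, 4.03 and 4.02 on WT TAMs and 3.88, 4.11 and 4.07 on WT macrophages. It rose in KO relative to WT macrophages by 0.96 ± 0.25 (adjusted p = 0.0278) and in KO relative to WT TAMs by 0.94 ± 0.25 (adjusted p = 0.0295). The first call was lost without any array of KO or WT macrophages (up to 0.102) and the second without WT TAM 1, 2 or 3 (up to 0.083), and the TAM difference was 0.54 without KO TAM 3. Nr4a2 differed by 0.07 in macrophages (adjusted p = 0.817) and by -0.04 in TAMs (adjusted p = 0.914). Like Nr4a1, the other genes of the list are induced early after stimulation of cells. Besides Nr4a1, 3 of 15 measured genes passed between KO and WT macrophages, where 11.3% of all genes did, all higher, namely Nr4a3, Fosb (1.48 ± 0.22, adjusted p = 0.00169) and Fos (0.51 ± 0.14, adjusted p = 0.0357, lost without WT macrophage 1, 2 or 3 or KO macrophage 1 or 3, up to 0.139). In KO TAMs against KO macrophages, where Nr4a1 fell, Dusp1 (0.60 ± 0.11) and Fos (0.57 ± 0.14) of this list rose, and no other passed. These were 2 of the 15 genes, where 6.53% of all genes passed. The Dusp1 call was lost without KO macrophage 2 (0.0532), and that of Fos without any of 6 arrays in turn (up to 0.133).

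Other genes known from nonclassical monocytes, 22 measured besides the 10, went both ways in KO TAMs. Of these 4 rose and 2 fell against KO macrophages, where 6.53% of all genes passed, with a median difference of 0.21 against -0.01. The lipid-binding Fabp4 (4.30 ± 0.86, lost without KO macrophage 1, adjusted p = 0.0585), Apoc2 (1.23 ± 0.20), Apobec1 (0.95 ± 0.12) and the growth factor receptor Csf1r (0.84 ± 0.19, lost without KO macrophage 1, 2 or 3, up to 0.0748, and 0.56 without KO TAM 1) rose. The phosphatase Dusp16 fell by 0.47 ± 0.10 (lost without KO macrophage 1, 2 or 3 or KO TAM 2, up to 0.0632). With co-culture in WT cells 3 of the 22 rose and 5 fell, where 2561 of the 22180 genes passed. Between KO and WT macrophages 1 rose and 5 fell, where 11.3% of all genes passed, and the falls included Cd36 itself, Adgre4 (-1.18 ± 0.34, lost without 8 of the 12 arrays in turn, up to 0.137), Dusp16 (-0.58 ± 0.10) and Stk10 (-0.53 ± 0.15, lost without 8 of 12, up to 0.119). In TAMs, KO against WT, 4 rose and 4 fell, where 12.2% of all genes passed, among them Fcgr4 (0.94 ± 0.09), an activating Fc receptor, and Adgre4 (1.44 ± 0.34), which rose, and Bcl2 (-1.21 ± 0.11), which fell. Without KO TAM 1 the Adgre4 difference was 0.88.

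Of the genes known from classical monocytes, 6 of 19 measured passed in KO TAMs against KO macrophages, all higher, with a median of 0.55 against -0.01 over all genes, of which 6.53% passed. The guanine deaminase Gda (3.09 ± 0.66), fibronectin Fn1 (2.72 ± 0.61), Mgst1 (1.38 ± 0.17), S100a10 (1.23 ± 0.29) and Ly6c2 (0.98 ± 0.21), which encodes part of the Ly6C antigen, were the 5 largest. Among these the Mgst1 call was kept when each of the 12 arrays was left out in turn, and the others were lost without 1 or more of KO macrophage 1, 2 and 3 (up to 0.0983), that of Fn1 also without KO TAM 1 or 2. Without KO TAM 1 the S100a10 difference was 0.77 and the Gda difference 2.08, as KO TAM 1, 2 and 3 read 10.68, 9.57 and 9.06 for S100a10 and 10.69, 8.36 and 6.98 for Gda. Ly6c2 read 5.12, 4.93 and 5.55 on KO TAMs, against 4.36, 3.96 and 4.33 on KO macrophages. It read 5.01, 5.08 and 5.68 on WT TAMs, against 4.41, 4.14 and 3.95 on WT macrophages. The median co-culture difference of the 19 genes in WT cells was 0.35, against 0.01 over all genes. Ccr2, the chemokine receptor of classical monocytes, read 3.82 to 4.39 on all 12 arrays. In KO against WT macrophages 1 of the 19 rose and 6 fell, where 11.3% of all genes passed, with Fn1 (-4.35 ± 0.61) and S100a4 (-2.18 ± 0.22) among the falls.

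Markers of other cells that use the listed genes were examined beside them, as whole lists. The macrophage genes Adgre1 (12.16 to 12.83) and Cd68 (12.05 to 13.07) were high on all 12 arrays. With co-culture 5 of the 11 measured macrophage markers rose and 2 fell in KO cells, where 6.53% of all genes passed. In WT cells 3 rose and 3 fell, where 2561 of the 22180 genes passed. Cd68 rose by 0.83 and Fcgr1 by 1.40 in KO TAMs, and Spi1 fell there by 0.48.

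For Pecam1 the list was 14 endothelial markers. Their mean was 4.86 to 5.07 in KO TAMs and 4.76 to 4.81 in KO macrophages, and 4.97 to 5.19 in WT TAMs and 4.80 to 4.90 in WT macrophages, while the median difference of the 14 was 0.03 with co-culture in KO cells and 0 in WT cells. In KO TAMs against KO macrophages 1 of the 14 passed, where 6.53% of all genes did, namely Eng, which rose by 1.26 ± 0.24. In WT cells 3 passed, all higher, where 2561 of the 22180 genes did. These were Kdr (3.99-fold on the linear scale) and, on the log2 scale, Vwf (0.96 ± 0.25) and Eng (0.86 ± 0.24). Kdr read 6.49, 5.54 and 5.41 on KO TAM 1, 2 and 3, 7.73, 6.27 and 7.26 on WT TAMs and 4.94 to 5.44 on the macrophage arrays, so KO TAM 1 stood nearest to WT TAMs here too. Among the other markers of the list Cdh5 read 5.05 to 5.59, Tie1 4.09 to 4.85 and Emcn 2.97 to 3.42 over the 12 arrays.

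For Itgal and Spn the list was 11 T and NK cell markers, with a mean of 4.68 to 4.81 in KO TAMs, 4.58 to 4.68 in KO macrophages, 4.45 to 4.50 in WT TAMs and 4.33 to 4.41 in WT macrophages. Cd4 was the marker that passed between the genotypes, higher by 2.14 ± 0.31 in KO macrophages (adjusted p = 0.00129) and by 2.06 ± 0.31 in KO TAMs (adjusted p = 0.0013), and it read 5.80 to 9.88 over the arrays. Thus 1 of the 11 passed in each comparison, where 11.3% of all genes passed in macrophages and 12.2% in TAMs. The T cell receptor genes Cd3e (3.87 to 4.40) and Cd3g (3.18 to 3.86) had narrower ranges.

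For Pou2f2 the list was 10 B cell markers, with a mean of 4.70 to 5.06 in KO TAMs, 4.83 to 4.96 in KO macrophages, 4.67 to 5.00 in WT TAMs and 4.88 to 4.90 in WT macrophages. Among them Cd79b read 6.13, 8.30 and 8.17 on KO TAM 1, 2 and 3 and 9.04 to 9.16 on KO macrophages (-1.57 ± 0.44, adjusted p = 0.0549), and 5.77, 6.51 and 5.83 on WT TAMs, with KO TAM 1 again the lowest of the KO arrays. Cd22 (6.35 to 8.99) and Ebf1 (4.11 to 8.09) also ranged widely. Between KO and WT TAMs 3 of the 10 markers passed, where 12.2% of all genes did. Cd79b rose by 1.498 in KO TAMs (adjusted p = 0.0439). Its call was kept in 2 of the 12 fits with an array left out (up to 0.167). Cd22 rose there by 1.22 ± 0.32 (lost without WT TAM 1 or 3 or KO TAM 2 or 3, adjusted p up to 0.107). Ebf1 fell by 1.83 ± 0.43 (lost without KO TAM 3, 0.061). Ebf1 fell as well in KO relative to WT macrophages, by 1.68 ± 0.43 (lost without any of 5 macrophage arrays in turn, up to 0.102). It was the 1 marker of the 10 that passed there, where 11.3% of all genes did. Ms4a1 read 3.31 to 3.60 and Pax5 4.03 to 4.48 on the 12 arrays.

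Of 14 myeloma and plasma cell markers the mean was 6.39 to 6.47 in KO TAMs, 6.33 to 6.40 in KO macrophages, 6.48 to 6.64 in WT TAMs and 6.62 to 6.66 in WT macrophages. Xbp1 fell by 0.41 ± 0.09 in KO TAMs against KO macrophages (lost without KO macrophage 1, 2 or 3 or KO TAM 2, up to 0.0643). It was the 1 marker of the 14 that passed there, where 6.53% of all genes did. Sdc1 (-1.19 ± 0.23), Derl3 (-0.77 ± 0.15) and Txndc5 (-0.48 ± 0.09) fell in KO relative to WT macrophages. These were 3 of the 14, where 11.3% of all genes passed. Jchain (3.28 to 3.84) and Tnfrsf17 (3.35 to 4.09) had narrower ranges than Sdc1 (4.76 to 6.87) and Fkbp11 (4.34 to 6.72). The part of other cells in the differences of the listed genes was not tested.

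The genes next to the listed ones on the chromosome were set beside them, 3 measured genes on each side in the RefSeq order. Of 60 such neighbours 9 passed in KO TAMs against KO macrophages, 8 between KO and WT macrophages and 5 between KO and WT TAMs, where 6.53%, 11.3% and 12.2% of all genes passed. Next to Pecam1, Milr1 (-0.85) and Polg2 (-0.60) fell in KO TAMs, and next to Spn, Cd2bp2 (-0.40) and Tbc1d10b (-0.43) fell in KO macrophages. These neighbours were named after their values were seen. Of the others that passed in KO TAMs against KO macrophages, Cd300ld3 (-0.67) and Ttc21a (-0.79) fell. Cd300lf (0.58), Treml2 (1.30), B430306N03Rik (1.25), Trem2 (2.91) and Rnf167 (0.56) rose. Of the others that passed between KO and WT macrophages, Trem2 (-2.19) fell, and Cd300ld3, Csrnp1, Snord104, Polg2 and Ddx5 rose. Neighbours that passed thus went both ways.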

How the data were processed

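The members, gene lists and alternatives were chosen with earlier results of these data known. The authors deposited 1 table of intensity values for 41345 probe sets on 12 arrays, made with RMA per the submitters' processing notes, which also name limma and give no versions. RMA corrects background, normalizes arrays to 1 distribution by quantiles and summarises probe sets, so a shift of the whole transcriptome is lost. The deposited intensity values had array medians of 31.3 to 33.3, which is a linear scale, and log2 was taken without a pseudocount. Of the probe sets, 23521 had 1 gene symbol in the platform annotation, 1814 several and 16010 none, and those with several or none were not used. For a gene with several probe sets the one with the highest mean was kept, for 22180 genes in all, with no minimum level. Symbols were matched to RefSeq by Entrez identifier.

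Group and replicate came from the sample titles. Differences were fitted with limma 3.58.1 in R 4.3.3 (lmFit, eBayes) on 4 group means over the 12 arrays, with 8 residual degrees of freedom, and tested on simulated data. TAM arrays varied more (median SD over genes 0.144 in KO TAMs, 0.105 in KO macrophages, 0.14 in WT TAMs and 0.096 in WT macrophages), so p from the common spread may be too low where TAM groups are compared and too high for macrophage groups. The number of arrays limits the precision. No 2 arrays were identical. Same-numbered arrays of different groups had correlated deviations (over 0.1) in 2 of 18 pairs, so the numbers were not taken to pair the arrays.

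Named genes were the 10, up to 5 called genes of each list by size of difference, fixed paralogs and partners, and the genes most alike by Pearson's r. A gene rose, fell or passed at an adjusted p under 0.05. The alternatives were 10 settings, each of 12 arrays left out in turn, and 1 setting added after seeing the data.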

Additional observations from a re-analysis of the deposited data

Results flagged for a closer look

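Over the 10 genes and the monocyte lists, 51 genes were examined. In 3 of them the arrays separated in opposite directions, with all WT TAMs below WT macrophages and all KO TAMs above KO macrophages. The share of all genes with this pattern was not counted, so nothing is read from this count. In the limma fit over all genes the KO minus WT value of the co-culture difference did not pass for any of the 3. Cd274, which encodes the checkpoint ligand PD-L1, had a co-culture difference of 0.49 in KO and -0.52 in WT cells, a KO minus WT value of 1. Fcgr4 had 0.30 in KO and -0.42 in WT cells, a value of 0.72. Lyz2, the lysozyme gene of macrophages, had 0.28 in KO and -0.20 in WT cells, a value of 0.48. None of the 10 listed genes showed this pattern.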

How the results depend on the processing

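Of the 10 genes, Spn kept its lower call in KO TAMs and in KO macrophages, and Nr4a1 its higher call in KO macrophages and KO TAMs, under all alternatives run. Genes of the list called in KO TAMs against KO macrophages numbered 3, against 5 with array weights, 6 without WT TAM 2 and KO TAM 1, and 2 to 4 with each array left out. Between KO and WT macrophages there were 2, against 5 on those arrays alone, 4 with weights, 4 without these 2 arrays, and 2 to 3. Between KO and WT TAMs there were 2, against 1 on those arrays alone, 5 with weights, 5 without these 2 arrays, 5 on those arrays without KO TAM 1, and 2 to 5.

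Genes called numbered 2561 for WT co-culture (3976 with weights, 4049 without the 2 arrays, 1475 to 3393 with an array left out), 1449 for KO co-culture (505 alone, 2705 with weights, 611 to 1939), 2512 between macrophages (4716 alone, 4923 with weights, 4558 without the 2 arrays, 1403 to 3455) and 2710 between TAMs (638 alone, 4725 with weights, 4480 without the 2 arrays, 1749 to 3710). For the KO minus WT co-culture difference 43 genes were called, against 105 with 16 added before log2, 96 without genes of a mean level under 5, 99 with a trended robust fit, 761 with weights, 1496 without the 2 arrays and 14 to 444. With the replicate number as a block there were 26, and 3 genes of the list were called between TAMs, Pou2f2 being added. The cause was not tested. Uncalled values changed sign for Eno3 in KO TAMs against KO macrophages (-0.0014, -0.0455, -0.0506 and -0.0245 without KO macrophage 1 or 2 or KO TAM 2 or 3, up to 0.0946 with other arrays left out), for Eno3 between TAMs (-0.0001 and -0.0234 without WT TAM 1 or 3, up to 0.2088) and for Ace between macrophages (0.0775 and 0.0529 without WT macrophage 1 or KO macrophage 2, down to -0.1131). What signal over background limits cannot be told, as the table has no detection calls.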
